A study of Mus musculus with 8 samples.

Results

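The genes described here are 10 chemokines that intestinal epithelium is known to make or to switch on: Ccl20, Ccl9, Ccl6, Ccl25, Ccl28, Cxcl16, Cx3cl1, Cxcl10, Cxcl1 and Cxcl5. They were taken by gene symbol from a table of 54532 genes, and each of the 10 matched 1 row. The table holds bulk RNA-seq counts of 8 libraries of mouse intestinal organoids, epithelial structures that grow from crypts in a gel without blood cells or connective tissue. The libraries fall into 4 of control organoids and 4 of organoids treated with RANKL, the ligand of the receptor RANK. The comparison asks how the genes an epithelium expresses change when RANKL is added. Per the study's methods the crypts were cultured with a ROCK inhibitor in medium with EGF, NOGGIN and R-spondin, which both groups share, and its mouse lines had a C57BL/6J background. No allele, transgene or other agent sets the groups apart in the sample labels, and neither the RANKL concentration nor the time of treatment was given in the sources used here.

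Chemokines are small proteins that draw leukocytes along a gradient by way of receptors on the leukocyte surface, and they are grouped into CC, CXC and CX3C families by the spacing of conserved cysteines. In the gut, CCL25 and CCL28 are known for homing of lymphocytes and plasma cells to the mucosa, and CCL20, CCL9 and CXCL16 for the epithelium that covers lymphoid follicles, where antigen-sampling M cells sit. RANKL is known to bring about M cells, and RANK signals through NF-κB, a transcription factor family with many chemokine genes among its targets.

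The stretches of 250 bases before the transcription start are shown for 4 members picked by their results below. Ccl20 changed the most among the members tested, Ccl9 and Ccl6 are neighbours that changed unequally, and Cxcl10 was nearly uncounted in control libraries. The sequences are RefSeq's on GRCm38.p6, written 5′ to 3′ along the gene. Ccl20 is on the + strand (chr1:83116516-83116765). The other three are on the − strand, Ccl9 at chr11:83578637-83578886, Ccl6 at chr11:83593088-83593337 and Cxcl10 at chr5:92348890-92349139. Capitals mark letters that match 1 of 5 motifs on either strand: the NF-κB consensus, an ETS motif of the type that SPI-B and PU.1 bind (GAGGAA), AP-1 (TGANTCA), an interferon response motif (GAAANNGAA) and the TATA box (TATAAA).
Ccl20: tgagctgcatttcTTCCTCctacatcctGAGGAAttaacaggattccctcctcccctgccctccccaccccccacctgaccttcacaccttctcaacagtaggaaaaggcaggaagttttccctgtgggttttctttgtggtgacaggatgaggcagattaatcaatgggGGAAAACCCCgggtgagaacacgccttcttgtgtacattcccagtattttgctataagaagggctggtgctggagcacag
Ccl9: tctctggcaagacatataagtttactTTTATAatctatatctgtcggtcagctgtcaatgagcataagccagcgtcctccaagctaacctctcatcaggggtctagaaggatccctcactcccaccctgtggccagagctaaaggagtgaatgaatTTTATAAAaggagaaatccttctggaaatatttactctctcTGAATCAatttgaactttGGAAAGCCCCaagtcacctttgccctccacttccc
Ccl6: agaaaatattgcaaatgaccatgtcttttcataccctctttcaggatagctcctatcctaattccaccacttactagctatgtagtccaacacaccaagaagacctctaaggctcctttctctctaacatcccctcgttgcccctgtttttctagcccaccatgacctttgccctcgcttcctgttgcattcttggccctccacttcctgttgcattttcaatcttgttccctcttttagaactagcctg
Cxcl10: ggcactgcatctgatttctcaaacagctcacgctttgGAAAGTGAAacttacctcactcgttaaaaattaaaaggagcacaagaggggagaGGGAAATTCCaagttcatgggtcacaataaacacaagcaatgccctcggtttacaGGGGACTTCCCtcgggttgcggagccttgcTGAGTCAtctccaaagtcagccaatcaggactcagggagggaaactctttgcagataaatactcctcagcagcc

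The Ccl20 stretch holds an NF-κB match 80 to 71 bases before the start and a pair of ETS matches further upstream. In Ccl9 the NF-κB match lies 35 to 26 bases before the start, next to an AP-1 match. Ccl6 holds none of the 5 motifs in this stretch or in the 50 bases after the start. In Cxcl10 the run GGGGACTTCCC, 104 to 94 bases before the start, holds overlapping NF-κB matches, a separate one lies further upstream, and AP-1 and the interferon response motif each occur once. Windows of 300 bases (250 before and 50 after the start) were at hand for 8 of the 10 members, with 2 windows for Ccl25. None was at hand for Cxcl16 and Cxcl5, so their promoters were not searched. The NF-κB consensus occurred in 4 of these 8 members, Ccl20, Ccl9, Cxcl10 and Cxcl1, and in 8.46% of the 32851 mouse windows of the same length. Across the same windows the ETS motif occurred in 28.3%, AP-1 in 7.81%, the interferon response motif in 8.56% and the TATA box in 13.6%. A match describes letters only, and binding was not measured here.

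**Figure D1:**
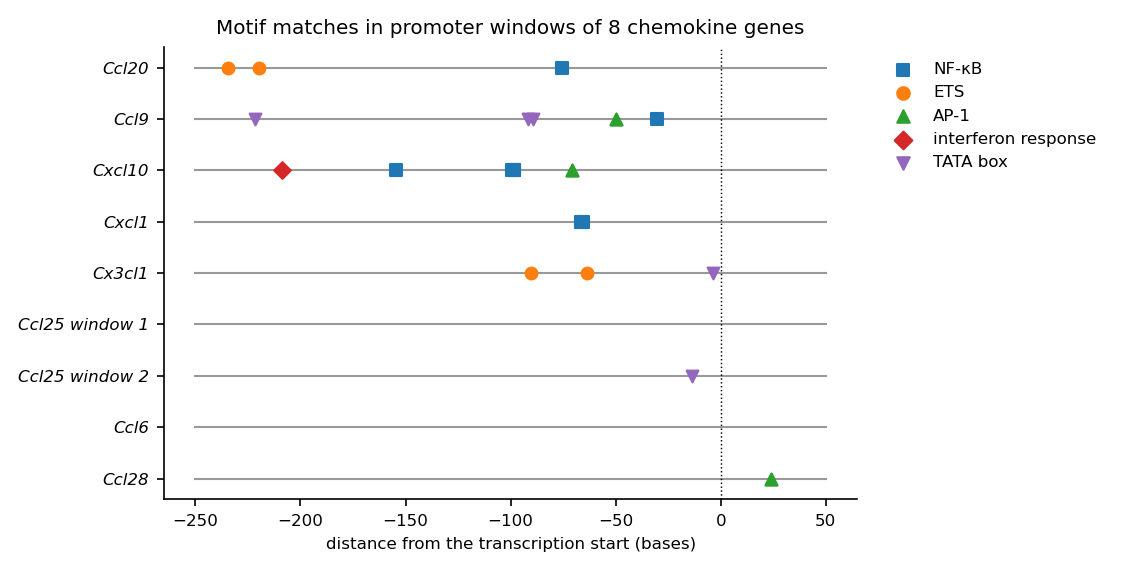
Positions of motif matches in RefSeq promoter windows of 8 chemokine genes, with the distance from the transcription start in bases on the x axis and 1 line for each window (Ccl25 has 2). NF-κB matches (squares) appear in Ccl20, Ccl9, Cxcl10 and Cxcl1, and the windows of Ccl6 and the first of Ccl25 hold no match to any of the 5 motifs.

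Library totals lay between 583663 and 7807298 counts, with 2.81 times as many counts in the control as in the RANKL libraries together. Where a gene had 0 counts its true level may be up to 3 counts, from 0.382 CPM in the deepest to 5.16 CPM in the shallowest library. Values of single libraries are given in the order of their replicate numbers. CPM are counts scaled to a common library total after TMM normalization. The libraries were primed on the poly(A) tail, so a transcript gives a read near its 3′ end and levels of different genes can be set side by side without dividing by length. The tissue label held against markers: the 6 epithelial markers summed to between 6356 and 7432 CPM in control and between 6094 and 6687 CPM in RANKL libraries, although 2 of them, the keratin gene Krt18 and the tight junction gene Cldn7, fell. Of 10 leukocyte markers 4 were at 0 in all libraries, Ptprc (CD45) had 1 count in all, and the list summed to between 3.44 and 10.8 CPM in control and between 4.82 and 12.5 CPM in RANKL libraries. The highest of them in both groups was Csf1r, at means of 5.29 CPM in control and 4.95 CPM in RANKL libraries. The 10 markers of stroma and endothelium summed to between 5.48 and 24.1 CPM in control and between 21.3 and 27.6 CPM in RANKL libraries, with Cdh5 and Dcn at 0 throughout. Pdgfrb was the only gene of that list with enough counts to test, and it reached the filter's level in the RANKL libraries only. It rose from 3.87 ± 1.63 CPM to 19.0 ± 2.99 CPM (SD, n = 4 each), most of the list's sum in the RANKL libraries. In bulk libraries, a change in the number of cells of a type cannot be told apart from a change in RNA per cell.

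Of the 10 chemokines, 6 had enough counts for edgeR's quasi-likelihood test, and 5 of the 6 rose with RANKL past an adjusted p of 0.05, while none of them fell. Over all 9971 genes tested, 25.9% passed the threshold, 13.6% as higher and 12.4% as lower with RANKL. The 5 were Ccl20, Cxcl16, Ccl9, Cx3cl1 and Ccl25, and Ccl6 did not pass. The median log2 fold change of the 6 was 0.97, against 0.00017 over all genes tested. Ccl20 and Cxcl16 reached the filter's level in the RANKL libraries only, so the 6 are not a sample of the 10. Ccl28, Cxcl10, Cxcl1 and Cxcl5 had too few counts for the filter and are described by their counts. Without the filter, where 10.8% of 23836 genes passed, 8 of the 10 chemokines passed, 7 higher and 1 (Ccl28) lower. Without the 2 libraries under 1000000 counts, 8 could be tested and 7 passed, 6 higher and 1 (Ccl28) lower. The 4 control and 4 RANKL libraries did not overlap in CPM for 5 of the 6 members tested, and for 24.6% of all genes tested. With Cxcl10 and Cxcl1, which did not pass the filter, they were apart for 7 of the 10, taking 0 counts as 0 CPM.

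**Figure D2:**
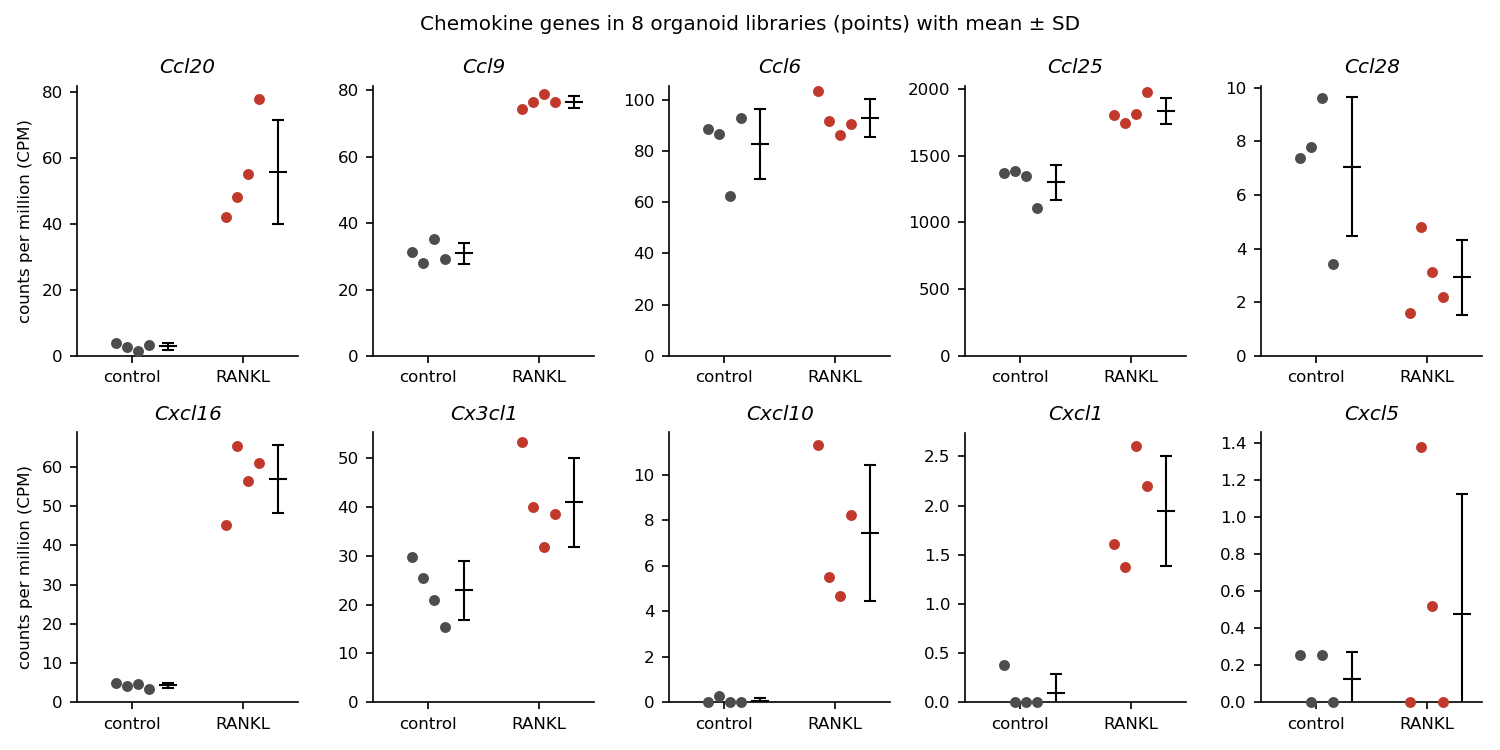
CPM of each of the 10 chemokine genes in the 4 control (grey) and 4 RANKL (red) libraries, with the mean ± SD beside the points, an axis of its own for each gene and error bars cut off at 0. With 0 counts drawn at 0 CPM, the groups are apart for all genes other than Ccl6, Ccl28 and Cxcl5.

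Ccl20 and Cxcl16 changed the most among the 6 members tested. Ccl20 (ENSMUSG00000026166, chr1:83116766-83119167, + strand) encodes the ligand of CCR6, a receptor of B cells, type 17 T cells and some dendritic cells. Its CPM in the 4 control replicates were 3.82, 2.68, 1.52 and 3.44, and in the 4 RANKL replicates they were 42.0, 48.2, 55.3 and 78.0. The lowest RANKL library thus lay far above the highest control library. The control values rest on 48 counts over the 4 libraries and the RANKL values on 344. The means were 2.87 ± 1.01 CPM and 55.9 ± 15.7 CPM (SD, n = 4 each). The fitted log2 fold change was 4.28 with a standard error of 0.25 (edgeR, adjusted p = 1.0e-14). By size of the rise Ccl20 ranked 35 among the 9971 genes.

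Cxcl16 (ENSMUSG00000018920, chr11:70453983-70459984, − strand) encodes a chemokine made as a membrane protein, whose receptor CXCR6 is found on T cells and innate lymphoid cells. Its CPM were 4.84, 4.29, 4.82 and 3.44 in the 4 control replicates and 45.2, 65.4, 56.3 and 61.0 in the 4 RANKL replicates. All RANKL libraries were above all control libraries, and the relative spread was alike in both groups, with coefficients of variation of 15.1% and 15.2%. The means were 4.35 ± 0.65 CPM and 57.0 ± 8.67 CPM (SD, n = 4 each). The fitted log2 fold change was 3.64 with a standard error of 0.19 (edgeR, adjusted p = 1.6e-15). Exons of Zmynd15 overlap Cxcl16 on the opposite strand, which strand-specific counting keeps apart.

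Cx3cl1 (ENSMUSG00000031778, chr8:94772009-94782427, + strand) encodes fractalkine, the other chemokine made as a membrane protein, which binds CX3CR1 on mononuclear phagocytes. It rose by much less than Cxcl16. Its CPM were 29.7, 25.5, 21.03 and 15.5 in the 4 control replicates and 53.3, 39.9, 31.8 and 38.5 in the 4 RANKL replicates. The groups did not overlap, but the highest control library and the lowest RANKL library were close. The means were 22.9 ± 6.08 CPM and 40.9 ± 9.0 CPM (SD, n = 4 each). The fitted log2 fold change was 0.65 with a standard error of 0.18 (edgeR, adjusted p = 0.0071).

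The ratio of the membrane-bound pair was compared within each library, where scaling between libraries has no part. Cxcl16 counts were 0.163, 0.168, 0.229 and 0.222 times those of Cx3cl1 in the 4 control replicates. In the 4 RANKL replicates they were 0.849, 1.64, 1.77 and 1.59 times those of Cx3cl1. Cx3cl1 was therefore the higher of the pair in all control libraries and in RANKL replicate 1, and Cxcl16 was the higher in the other three. The ratio was 6.86 times higher with RANKL, a log2 difference of 2.78 (exact two-sided permutation test over 70 assignments, p = 0.0286, adjusted over 2 pairs 0.0286, the smallest that 4 against 4 libraries allow).

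Ccl9 and Ccl6 are neighbouring CC chemokine genes on chromosome 11, 9.25 kb apart on the same strand, and both proteins bind CCR1. Ccl9 (ENSMUSG00000019122, chr11:83572919-83578636, − strand) had CPM of 31.2, 27.9, 35.2 and 29.2 in the 4 control replicates and 74.3, 76.4, 78.8 and 76.3 in the 4 RANKL replicates. The RANKL libraries were all higher and lay close together, with a coefficient of variation of 2.40%, although their totals differ. The means were 30.9 ± 3.19 CPM and 76.4 ± 1.83 CPM (SD, n = 4 each). The fitted log2 fold change was 1.29 with a standard error of 0.13 (edgeR, adjusted p = 6.6e-09).

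Ccl6 (ENSMUSG00000018927, chr11:83587882-83593087, − strand) did not pass the threshold. Its CPM were 88.4, 86.7, 62.6 and 92.9 in the 4 control replicates and 103.3, 91.5, 86.1 and 90.6 in the 4 RANKL replicates, so that the groups overlapped. The log2 difference was 0.18 with a standard error of 0.13 (edgeR, adjusted p = 0.34), and the means were 82.6 ± 13.6 CPM and 92.9 ± 7.36 CPM (SD, n = 4 each). The ratio of Ccl9 to Ccl6 counts was 0.353, 0.322, 0.563 and 0.315 in the 4 control replicates and 0.719, 0.835, 0.915 and 0.842 in the 4 RANKL replicates. The ratio was higher in every RANKL library than in every control library, by 2.18 times on average, or 1.12 on the log2 scale (exact two-sided permutation test, p = 0.0286, adjusted over 2 pairs 0.0286). Without any 1 of the RANKL libraries the exact test gave p = 0.0571. The neighbours thus changed unequally. Of their promoter stretches, that of Ccl9 holds NF-κB and AP-1 matches and that of Ccl6 holds neither. The windows of Cx3cl1 and Ccl25, which also rose, hold neither motif, and that of Ccl28 holds an AP-1 match. No stretch of 50 bases, the length of a read, within the last 500 bases of the transcripts of any of the 10 members occurs in a transcript of another gene.

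**Figure D3:**
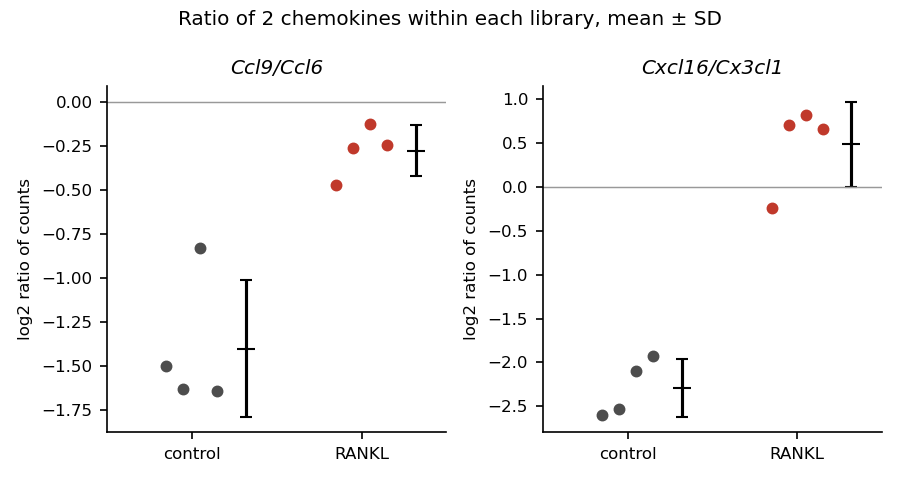
Log2 ratio of counts within each library for Ccl9 to Ccl6 (left) and Cxcl16 to Cx3cl1 (right), with points for the 4 control (grey) and 4 RANKL (red) libraries and the mean ± SD beside them. Both ratios are higher in each RANKL library than in each control library, and the Cxcl16 to Cx3cl1 ratio crosses 0, which marks equal counts, in 3 RANKL libraries.

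Ccl25 and Ccl28 are the homing chemokines of the list. Ccl25 (ENSMUSG00000023235, chr8:4325210-4360020, + strand) encodes the ligand of CCR9, which brings T cells to the small intestine. It was the most abundant chemokine in every library, with CPM of 1370, 1384, 1345 and 1106 in the 4 control replicates and 1807, 1743, 1814 and 1979 in the 4 RANKL replicates. The groups did not overlap. The means were 1301 ± 131 CPM and 1836 ± 101 CPM (SD, n = 4 each). The fitted log2 fold change was 0.49 with a standard error of 0.09 (edgeR, adjusted p = 0.0002). The rise of Ccl25 was the smallest relative change of the 5 and the largest in CPM. Exons of Elavl1 overlap Ccl25 on the opposite strand.

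Ccl28 (ENSMUSG00000074715, chr13:119623819-119654359, + strand) encodes the ligand of CCR10 that draws IgA plasma cells. It had 58, 29, 38 and 2 counts in the 4 control replicates and 1, 7, 6 and 4 counts in the 4 RANKL replicates. The CPM were 7.38, 7.78, 9.63 and 3.44 in control and 1.61, 4.82, 3.13 and 2.20 in RANKL libraries, and the groups overlapped through the shallowest control library. The means were 7.06 ± 2.604 CPM and 2.94 ± 1.40 CPM (SD, n = 4 each; exact two-sided permutation test, p = 0.0571). Pooled over libraries, the RANKL level was 0.393 times the control level, with a 95% interval of 0.226 to 0.646 for counting error only. The call depended on the fit: without the filter on low counts the log2 difference was -1.37 (edgeR, adjusted p = 0.0063), without the 2 libraries under 1000000 counts it was -1.30 (edgeR, adjusted p = 0.014), and DESeq2 gave -1.31 (adjusted p = 0.098).

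Cxcl10, Cxcl1 and Cxcl5 are CXC chemokines known from inflamed epithelium, and all 3 were near 0 in control libraries. Cxcl10 (ENSMUSG00000034855, chr5:92346638-92348889, − strand) encodes a ligand of CXCR3, a receptor of type 1 T cells and NK cells. It had 0, 1, 0 and 0 counts in the 4 control replicates and 7, 8, 9 and 15 counts in the 4 RANKL replicates. All 4 RANKL libraries were above all 4 control libraries in CPM, with 0 counts taken as 0. The RANKL values ran from 4.69 to 11.3 CPM. A 0 count in control replicate 4 may stand for up to 5.16 CPM, above the lowest of them. The pooled level was 108.1 times higher with RANKL, with a 95% counting interval of 18.3 to 4379, since the control group had a single count. The exact two-sided permutation test gave p = 0.0286. Without the filter edgeR gave an adjusted p of 1.4e-12, and DESeq2 gave 7.6e-07. Exons of Art3 overlap Cxcl10 on the opposite strand.

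Cxcl1 (ENSMUSG00000029380, chr5:90891241-90893115, + strand) and Cxcl5 (ENSMUSG00000029371, chr5:90759360-90761624, + strand) encode ligands of CXCR2 that draw neutrophils. Cxcl1 had 3, 0, 0 and 0 counts in the 4 control replicates and 1, 2, 5 and 4 in the 4 RANKL replicates. In CPM no RANKL library was as low as a control library (exact two-sided permutation test, p = 0.0286), and the pooled level was 11.1 times higher with a 95% counting interval of 2.99 to 61.2. That test took 0 counts as 0, while a 0 count in control replicate 4 may stand for up to 5.16 CPM. This is above every RANKL value of Cxcl1, of which the highest was 2.61 CPM. Without the filter edgeR gave Cxcl1 an adjusted p of 0.011, and DESeq2 gave 0.051. Cxcl5 had 2, 0, 1 and 0 counts in the 4 control replicates and 0, 2, 1 and 0 in the 4 RANKL replicates, or 3 counts in each group. No difference in Cxcl5 was detectable at this depth, and the 95% counting interval of its ratio ran from 0.371 to 20.7.

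**Figure D4:**
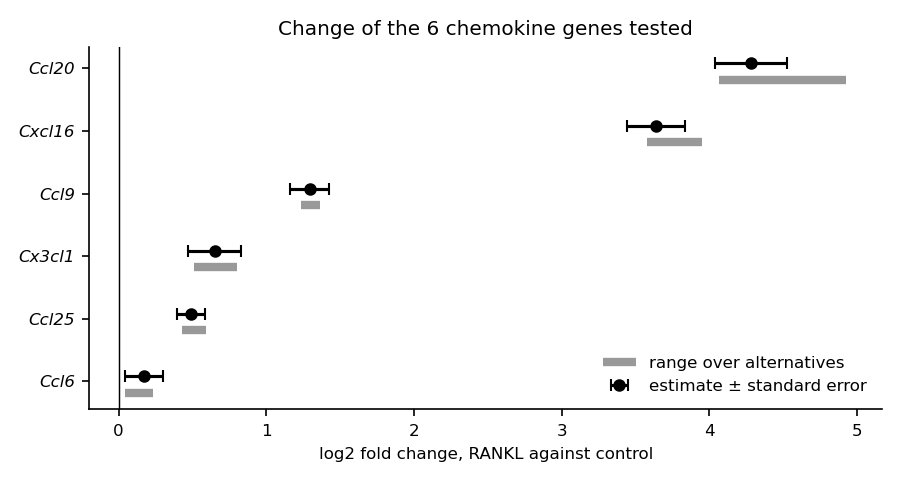
Log2 fold change of RANKL against control for the 6 chemokine genes tested (black points, with the standard error of edgeR's fit as bars) and the range of the estimate over the alternatives tried (grey). Ccl20 (4.28) and Cxcl16 (3.64) lie far from the rest, and the range of each of the 6 stays above 0.

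The order of levels differed between the groups mainly below the top 3. In control libraries it ran from Ccl25 over Ccl6, Ccl9, Cx3cl1, Ccl28, Cxcl16 and Ccl20 to Cxcl5, Cxcl1 and Cxcl10. The ranges of Ccl9 and Cx3cl1 overlapped, as did those of Ccl28 and Cxcl16, of Cxcl16 and Ccl20, and of the last 3 genes. In RANKL libraries Ccl25, Ccl6 and Ccl9 stayed on top in that order with ranges apart. Cxcl16 and Ccl20 followed, ahead of Cx3cl1, then came Cxcl10, Ccl28, Cxcl1 and Cxcl5. In those libraries the ranges of Cxcl16 and Ccl20 overlapped, as did those of Ccl20 and Cx3cl1 and of each pair of neighbours from Cxcl10 down.

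As a share of the counts of all 10 genes, Ccl25 made up 89.6% ± 1.13 in control and 84.5% ± 0.48 in RANKL libraries (SD, n = 4 each). The summed level of the 10 was 1452 ± 135 CPM in control and 2172 ± 113 CPM in RANKL libraries, and that of the 9 genes other than Ccl25 was 151 ± 12.9 CPM and 335.8 ± 15.7 CPM. Among these 9, Ccl6 made up 54.6% ± 6.80 of the counts in control and 27.7% ± 2.41 in RANKL libraries. The share of Ccl20 was 1.87% ± 0.57 in control and 16.6% ± 4.03 with RANKL, and that of Cxcl16 was 2.89% ± 0.51 and 17.0% ± 2.49. Ccl9 held about the same share, 20.7% ± 3.68 and 22.8% ± 1.38. The share of Ccl28 was 4.73% ± 1.98 in control and 0.88% ± 0.43 with RANKL. The control libraries were thus led by Ccl6 among these 9 genes, and the RANKL libraries spread their counts over Ccl6, Ccl9, Cxcl16, Ccl20 and Cx3cl1.

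**Figure D5:**
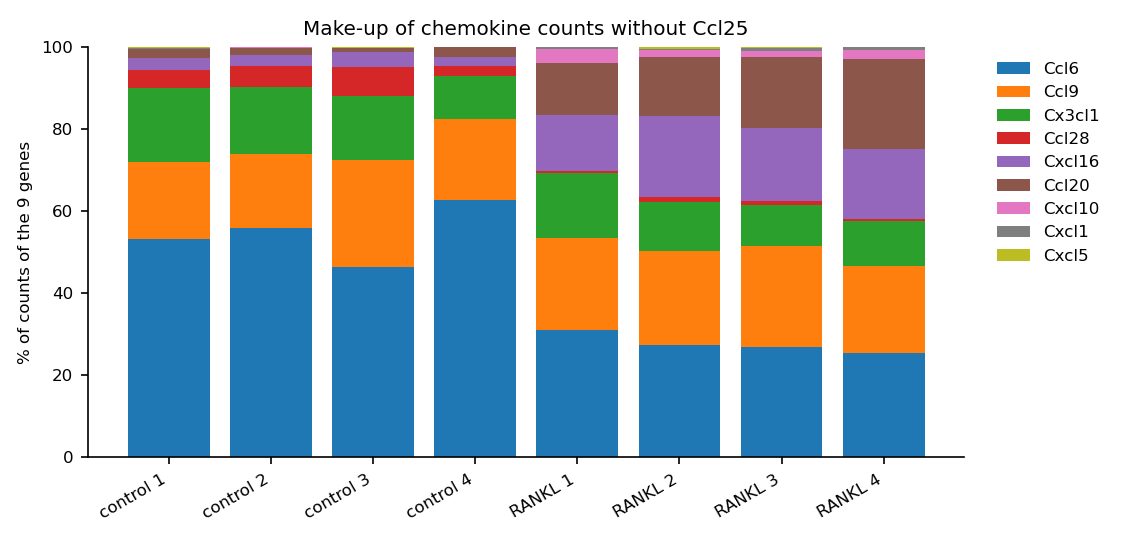
Share in percent of each gene in the counts of the 9 chemokine genes other than Ccl25, as 1 stacked bar for each library. Ccl6 takes 46.3% to 62.8% in the control libraries and 25.4% to 31.1% in the RANKL libraries, where Cxcl16 and Ccl20 take larger shares than in any control library.

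Other chemokine ligands were close to absent. Of 28 further ligand genes, 18 had 0 counts in all 8 libraries and none had enough counts to test. The list summed to 2.79 to 6.88 CPM in control and to 8.07 to 12.1 CPM in RANKL libraries. Without the filter on low counts 3 of the 28 passed, all higher: Cxcl2, a CXCR2 ligand, with 2 counts in control and 12 in RANKL libraries, Cxcl9, a CXCR3 ligand, with 0 and 7, and Pf4, a platelet chemokine, with 0 and 6. Each of these 3 overlapped between the groups, and no other alternative called them.

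The receptors of the 10 ligands were also few. Of 23 receptor genes, 11 had 0 counts in all libraries, among them Ccr6, the receptor of CCL20, and Cxcr3, that of CXCL10, and none of the 23 passed the filter. Ccr9, the receptor of CCL25, had 16 counts in control and 5 in RANKL libraries, at means of 0.745 and 0.946 CPM. Its exons overlap those of Gm17200 on the same strand. Cxcr6, the receptor of CXCL16, had 4 and 0 counts, and Cx3cr1, that of CX3CL1, had 7 and 1. Without the filter edgeR called Cxcr4, with 0 and 7 counts, and Ccr10, the receptor of CCL28, with 6 and 14 counts, as higher.

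Among 3 protease genes whose products act on chemokines, none passed the threshold. Adam10 and Adam17 encode the sheddases that release CXCL16 and CX3CL1 from the membrane, and Dpp4 encodes a peptidase that trims CXCL10. The log2 differences were 0.07 for Adam10 (edgeR, adjusted p = 0.75), 0.05 for Adam17 (edgeR, adjusted p = 0.81) and -0.26 for Dpp4 (edgeR, adjusted p = 0.28). At 46.2, 108.5 and 34.6 CPM in control libraries all 3 were well counted.

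Since Cxcl10 is known as an interferon-induced gene, 12 interferon-stimulated genes were set beside it. Of the 5 with enough counts, 2 rose, both genes of interferon regulatory factors, and none fell. Irf1, which NF-κB also induces, had CPM of 46.6, 44.8, 45.1 and 43.0 in the 4 control replicates and of 148.5, 136.3, 130.4 and 136.8 in the 4 RANKL replicates. The groups were far apart, with a fitted log2 fold change of 1.595 (standard error 0.11, edgeR, adjusted p = 2.2e-12). Irf7 rose from 3.63 ± 1.33 to 7.83 ± 2.26 CPM (SD, n = 4 each, edgeR, adjusted p = 0.028), a call lost under 6 of its 16 alternatives. Irf7 reached the filter's level in the RANKL libraries only. Stat2 and Bst2 did not pass. Isg15 had 22 counts in control and 18 in RANKL libraries, Rsad2 18 and 4, and Ifit1 16 and 4. Their mean CPM in control and RANKL libraries were 1.11 and 2.63 for Isg15, 1.14 and 0.65 for Rsad2, and 1.21 and 0.84 for Ifit1.

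Markers of M cells moved with the members that rose. The 8 listed genes summed to between 106 and 145.7 CPM in control and between 2047 and 2365 CPM in RANKL libraries. The 6 with enough counts all rose, but Spib, Sox8 and Tnfaip2 reached the filter's level in the RANKL libraries only. The 6 are therefore not a sample of the 8. Over all genes tested, 13.6% passed the threshold as higher and 12.4% as lower with RANKL. Spib, the transcription factor gene needed for M cells, went from 4.35 ± 1.42 CPM to 1607 ± 124 CPM, while Gp2, a marker of mature M cells, was at 0 in all 8. Of 6 enterocyte markers 1 rose, of 5 Paneth cell markers 1 fell, of 4 goblet cell markers none passed, and of 5 enteroendocrine markers 2 rose. The part of a change in cell types in the chemokine levels was not tested.

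The genes whose log2 CPM followed that of Ccl20 most closely over the 8 libraries were Mtmr4 (Pearson r = 0.997), Tpd52l2 (0.997, with exons that overlap Gm25184) and Sphk1 (0.996). Those nearest to Cxcl16 were Rassf2 (r = 0.999), Cnp (0.997) and Zbtb7c (0.997). The 8 points fall into 2 groups, so these values describe the difference between control and RANKL together with the spread within each group, over 9924 genes compared and with no test.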

How the data were processed

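Organoid RNA was made into QuantSeq forward libraries, which are primed on the poly(A) tail, and sequenced as single reads of 50 bases. BBDuk trimming, removal of abundant sequences by bowtie2, STAR alignment to GRCm38 and strand-specific counting by featureCounts on genes of Ensembl release 94 were done by the authors, who deposited the raw counts without normalization. Molecular identifiers are not mentioned, so intervals and floors cover counting error only. Nothing states that the libraries of a group came from separate cultures or animals, so p-values measure the spread between these libraries, which may be technical. The pairs of libraries within a group differed by more than sampling noise (chi-square per degree of freedom 1.18 to 8.14), so none were merged.

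Groups come from the sample labels. Library totals, TMM factors, edgeR's filter on low counts and its quasi-likelihood test (edgeR 4.0.16, R 4.3.3) were applied to the whole table, with Benjamini-Hochberg adjustment over 9971 genes and a threshold of 0.05. A standard error is the log2 fold change divided by the square root of F. Values of single genes and ratios of a pair (0.5 added to each count) were tested by exact two-sided permutation over 70 assignments. Of 4 pairs of related members, the 2 with both genes past the filter were tested. Pooled ratios carry exact conditional 95% intervals. Alternatives were other scaling, DESeq2 1.42.0, limma-voom (limma 3.58.1), other filters and thresholds, a replicate block, a depth covariate and left-out libraries. The fits were tested on simulated data. Tables were read with pandas 2.3.3 and tests run with scipy 1.17.1.

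Coordinates are from GENCODE M21 on GRCm38 (54495 of 54532 genes matched), promoters from RefSeq on GRCm38.p6. The text names all members, up to 5 genes past the threshold in each list, the 3 proteases and the 3 genes most like each of the 2 members that changed most among those tested, at a mean of at least 5 CPM (2 counts added before the log). Other genes were named after their values were seen. The members, gene lists and motifs were chosen with earlier results of these data known. Some genes of the lists are not reported by name here. Other experiments of the study were not analysed here.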

Additional observations from a re-analysis of the deposited data

Results flagged for a closer look

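Of 34 groups of 4 values checked, 5 had a library far from the other three of its group by Dixon's criterion, where chance gives about 1 in 20, or 1.7. Ccl25 was at 1106 CPM in control replicate 4, the shallowest library, and the next lowest control library was at 1345 CPM. Cxcl10 was at 0.268 CPM in control replicate 2, from 1 count, and Cxcl1 at 0.382 CPM in control replicate 1, from 3 counts, while the other three control libraries had 0 counts of each. Any count beside such 0 values meets the criterion by arithmetic, so the chance rate does not apply to the flags of Cxcl10 and Cxcl1. The log2 ratio of Ccl9 to Ccl6 was -0.83 in control replicate 3, against -1.50 in the next control library, and Ccl6 was lowest in that library. The log2 ratio of Cxcl16 to Cx3cl1 was -0.23 in RANKL replicate 1, the shallowest library of its group, against 0.66 in the next.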

How the results depend on the processing

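For the 6 members tested, no alternative fit that could test them changed a call at 0.05 or a direction. Over all alternatives the log2 fold change ran from 4.06 to 4.93 for Ccl20, 3.58 to 3.95 for Cxcl16, 1.24 to 1.36 for Ccl9, 0.51 to 0.80 for Cx3cl1 (highest adjusted p 0.046), 0.43 to 0.59 for Ccl25 and 0.05 to 0.24 for Ccl6. Ccl20, Cxcl16 and Cx3cl1 could not be tested where at least 10 counts were required in every library. The count of members past the threshold, 5, became 8 without the filter on low counts, 2 with at least 10 counts in every library and 3 with a fold of at least 2 (all higher in both), and ran from 5 to 7 with a library left out. The count of lower members, 0, became 1 (Ccl28) without the filter and without the 2 libraries under 1000000 counts. With 1 library left out it ran from 0 to 1. It was 1 in the fits where Ccl28 passed the filter and 0 in those that did not test Ccl28. Without the filter 3 other ligands and 3 receptors passed in place of 0. DESeq2 called 2 receptors, leaving out 1 library gave 0 to 1, and leaving out the 2 shallow libraries gave 1.

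Among all genes 2587 passed, 1636 at an adjusted p of 0.01 and 577 with a fold of at least 2 (438 higher, 139 lower), and 1853 to 2601 with a library left out. The 1232 lower genes became 808 with the depth covariate, 707 at 0.01, and 814 to 1234 with a library left out, lowest without RANKL replicate 4. The Ccl9 to Ccl6 log2 difference ran from 1.04 to 1.31 with a library left out and missed the threshold without any 1 RANKL library. The Adam17 log2 fold change ran from -0.07321 (without control replicate 3) to 0.1372 with a library left out. The cause of these changes was not tested, other than fewer genes or libraries in the fit. Same-numbered libraries correlated at -0.007, -0.033, 0.101 and 0.035 in their deviations from the group means. Other pairs of a control and a RANKL library ran from -0.134 to 0.086. The labels name no shared culture or batch, and values this low cannot decide whether there was one. With the replicate block 5 members passed, as without it.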
